A study of Mus musculus with 9 samples.

Results

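The expression of 7 genes of the interleukin-33 and regulatory T cell axis was followed in regenerating mouse muscle, out of 54532 genes with a deposited count. They are the cytokine gene Il33, its receptor gene Il1rl1, and the T cell and effector genes Foxp3, Areg, Il2ra, Ctla4 and Il10. They were chosen by name, with earlier results of the same libraries known, so their levels and fold changes are given as a description, without p-values.

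RNA was sequenced from C57BL/6J mice in 3 groups of 3 libraries. Young PBS mice were 4 months old, and old PBS and old rMETRNL mice were 24 months old. In all 3 groups the tibialis anterior, a muscle of the lower leg, was injured with barium chloride, a salt that destroys muscle fibres and starts regeneration, and then received 3 intramuscular injections, of PBS in the first pair of groups and of recombinant METRNL (rMETRNL), a secreted cytokine, in the third. The labels describe digested and strained muscle cells and the series description gives day 4 after injury, whereas the methods of the study describe whole muscle at day 8, so the material and day behind each value are uncertain. Libraries are named by the numbers in the labels, which run from 2 to 4 in old PBS and from 1 to 3 in the other groups. Nothing in the labels says whether each library is a separate animal, so the spread between libraries may be partly technical.

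IL-33 is a cytokine stored in the nucleus of barrier and stromal cells and released when they are damaged, which is why it is called an alarmin. In skeletal muscle it comes mainly from fibro-adipogenic cells, the stromal progenitors between the fibres. Its receptor ST2, the product of Il1rl1, is carried by the regulatory T cells of muscle, by mast cells and by innate lymphoid cells of type 2, and pairs with the shared chain encoded by Il1rap. Regulatory T cells are CD4 T cells that depend on the transcription factor FOXP3. In injured muscle they expand in response to IL-33 and release amphiregulin, the product of Areg, a ligand of the EGF receptor that acts on muscle stem cells, and this response is known to weaken with age.

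The libraries held 16238700 to 22522560 counts, on 21470 to 23950 genes each, and a count of 3 corresponded to 0.133 to 0.185 CPM, the counts of a gene scaled to the size of its library. That floor is about the highest level that a count of 0 allows at 95% confidence, and it covers counting error only. Levels below are CPM with edgeR's TMM factors, whereas the floor is scaled to raw totals, so the scales differ slightly. No replicates of a group were within counting noise of each other (chi-square over its degrees of freedom, 10.9 to 169), and old PBS 3 and old PBS 4 were the farthest apart. The old PBS libraries also held RNA of other tissues. Summed over a list of 10 brain genes the level was 97.4 to 338 CPM in old PBS, 50.5 to 59.1 in young PBS and 65.9 to 87.0 in old rMETRNL, and Mobp and Snap25 were at 0 in both of the latter groups. Most of the sums of these latter groups was Aqp4, at 36.9 to 45.7 CPM in young PBS and 49.3 to 70.1 in old rMETRNL. Aqp4 was at 50.5, 9.48 and 54.3 CPM in old PBS 2, 3 and 4, so the sums understate the contrast. Slc1a2, for one, was at 17.8 to 30.8 CPM in old PBS and at most 0.555 elsewhere. For 8 hepatocyte genes the sums were 7.04 to 84.1 CPM in old PBS and at most 1.05 elsewhere, and for 8 keratinocyte genes young PBS 2 stood apart at 121 CPM, against 13.3 to 23.6 in the other libraries. Skeletal muscle itself was plain, with 76718 to 127199 CPM over 8 fibre genes in every library.

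Il33 was the most abundant of the 7 genes and, of them, the one whose level separated all old libraries from all young ones. Per kilobase of exon, the scale on which genes can be compared, Il33 stood at 6.61 ± 1.29 CPM per kb (SD, n = 9 libraries). Il1rl1 followed at 0.640 ± 0.220, Il10 at 0.404 ± 0.221, Il2ra at 0.305 ± 0.0589, Ctla4 at 0.222 ± 0.103, Foxp3 at 0.106 ± 0.0485 and Areg at 0.0350 ± 0.0923 CPM per kb. The libraries of Il33 did not overlap those of Il1rl1 on this scale, whereas each later gene in the order overlapped its neighbour.

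**Figure D1:**
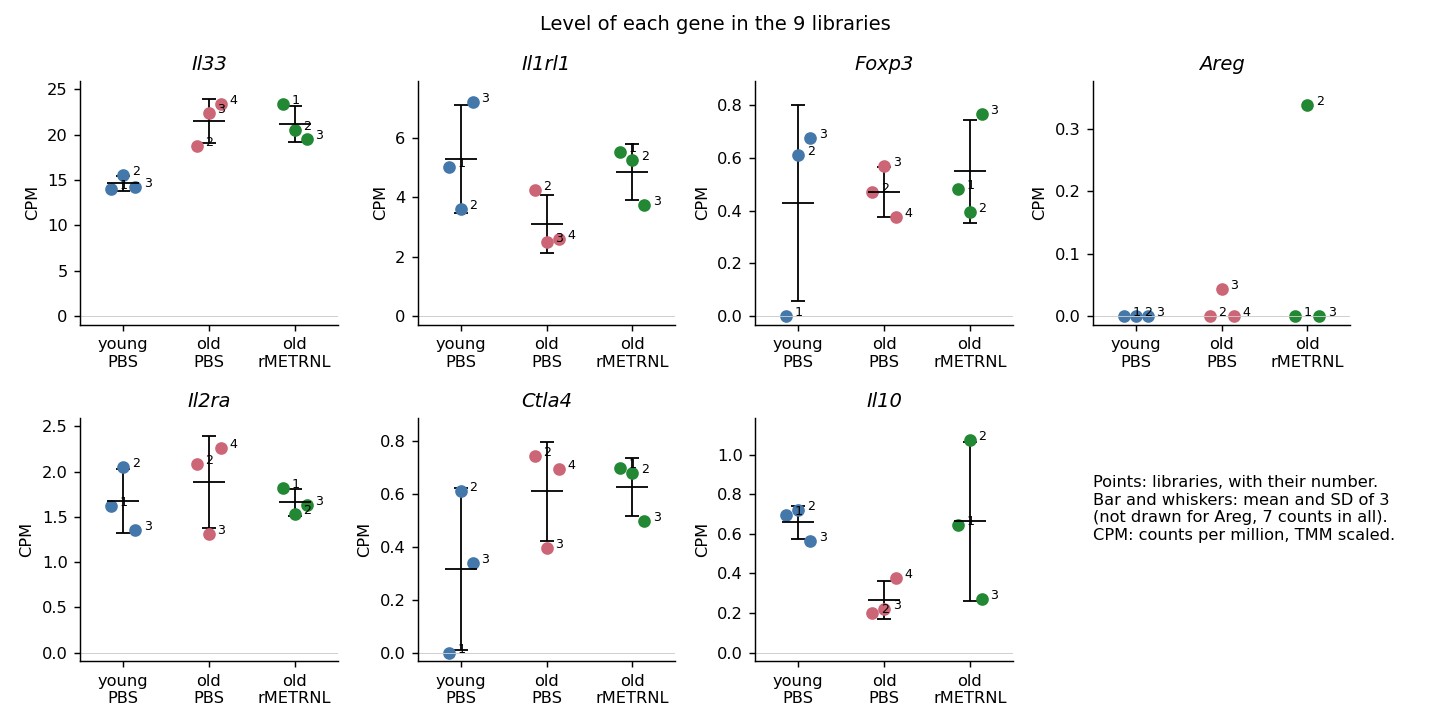
CPM (vertical axis, starting at 0) of the 7 genes in the 9 libraries by group, with library numbers beside the points and the mean and SD of each group as bars. The 6 old libraries lie above the 3 young ones for Il33, and Areg is above 0 in only 2 libraries. For Il10, old PBS lies below young PBS at low counts (3 to 6 against 10 to 13).

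Il33 (ENSMUSG00000024810, chromosome 19, 29925114 to 29960718, plus strand of GRCm38) received 243, 280 and 253 counts in young PBS 1 to 3, which is 14.0, 15.5 and 14.3 CPM. Old PBS 2, 3 and 4 held 279, 512 and 372 counts, or 18.8, 22.4 and 23.4 CPM. Old rMETRNL 1 to 3 held 436, 363 and 432 counts, or 23.3, 20.5 and 19.5 CPM. Every old library was thus above every young one, whereas the PBS and rMETRNL libraries of old mice overlapped. Of the 16124 genes kept over all libraries, 0.564% were likewise higher in all 6 old libraries than in all 3 young ones. The group means were 14.6 ± 0.806 CPM in young PBS, 21.5 ± 2.42 in old PBS and 21.1 ± 1.97 in old rMETRNL (SD, n = 3).

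In the edgeR fits the log2 fold change of Il33 was 0.56 (SE 0.16), a 1.47-fold difference, in old PBS against young PBS. It was 0.53 (SE 0.13), or 1.45-fold, in old rMETRNL against young PBS, and -0.03 (SE 0.17) in old rMETRNL against old PBS. The first pair of values shares the young PBS libraries and is not independent. Neither value passed the threshold of an adjusted p under 0.05. Without each library in turn the difference of old PBS from young PBS ranged from 0.50 to 0.65, and that of old rMETRNL from old PBS from -0.12 to 0.02. The part of the brain and hepatocyte RNA of the old PBS libraries in the level of Il33 was not tested.

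In bulk RNA, fewer cells of a type and less RNA per cell cannot be told apart, and Il33 was therefore also set against markers of fibro-adipogenic cells. These ratios were chosen after the data were seen. Over the 9 libraries Il33 itself did not follow these markers closely, with Pearson's r of log2 CPM of 0.03 for Pdgfra and from -0.20 (Dpp4) to 0.49 (Ly6a) over the 10 genes of the list, given as a description. Per 100 counts of Pdgfra, the receptor that marks fibro-adipogenic cells, Il33 gave 17.8, 18.9 and 15.1 counts in young PBS, 24.2, 28.9 and 35.0 in old PBS and 20.1, 21.6 and 23.1 in old rMETRNL. The 3 groups did not overlap on this ratio, with old rMETRNL between the others. The means were 17.3 ± 1.91, 29.4 ± 5.43 and 21.6 ± 1.52 (SD, n = 3). Pdgfra itself stood at 66.8 to 77.6 CPM in old PBS, 78.8 to 94.2 in young PBS and 84.5 to 116 in old rMETRNL, so the old groups, which overlapped in Il33, did not overlap in Pdgfra. Per 1000 counts summed over the list of 10 fibro-adipogenic genes, Il33 gave 4.81 to 6.41 in young PBS, 6.89 to 11.4 in old PBS and 6.53 to 7.77 in old rMETRNL. On that ratio the old groups overlapped, and both remained above young PBS. With the very abundant Dcn and Gsn left out, the ranges were 11.6 to 15.4, 22.0 to 25.2 and 15.3 to 18.3, and old rMETRNL overlapped young PBS instead.

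**Figure D2:**
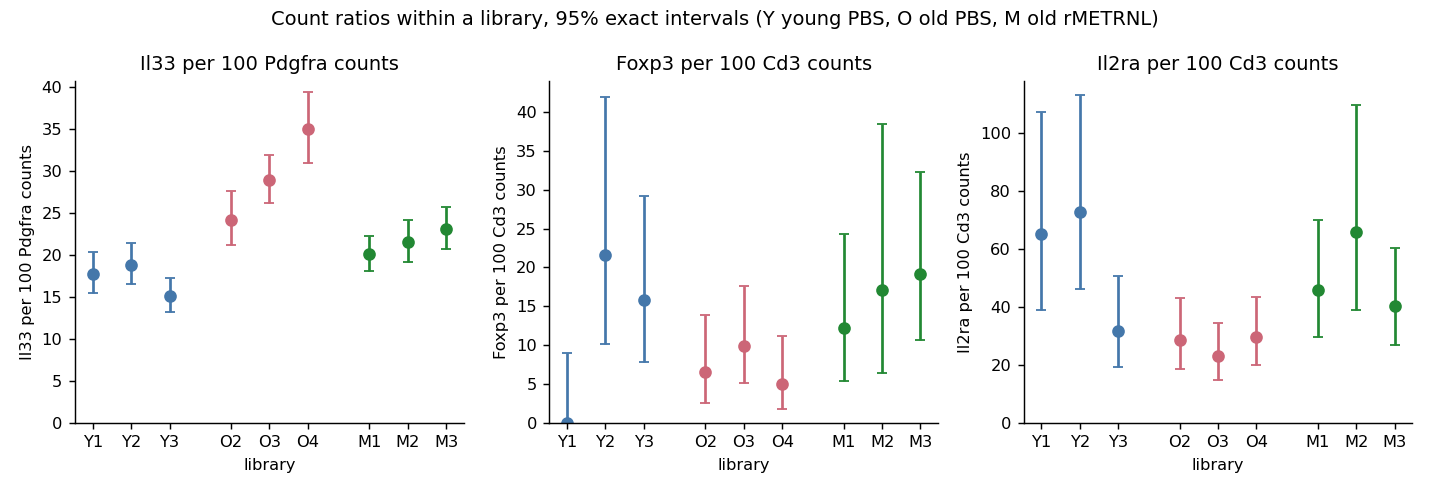
Count ratios (vertical axes, counts per 100 counts of the reference genes) in each library, with 95% exact intervals that cover counting error only; Y, O and M are young PBS, old PBS and old rMETRNL. Il33 per Pdgfra runs from 15.1 to 18.9, 24.2 to 35.0 and 20.1 to 23.1 in the 3 groups. For Foxp3 per Cd3 each O interval overlaps each M interval, whereas that of Y1 (0 to 8.96) lies below that of M3 (10.7 to 32.3).

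Il1rl1 (ENSMUSG00000026069, chromosome 1, 40429570 to 40465415, plus strand), which encodes the IL-33 receptor ST2, was lowest on average in old PBS. It held 87, 65 and 128 counts in young PBS (5.02, 3.61 and 7.22 CPM), 63, 57 and 41 in old PBS 2 to 4 (4.24, 2.49 and 2.58 CPM) and 103, 93 and 83 in old rMETRNL (5.51, 5.26 and 3.75 CPM). All pairs of groups overlapped. Group means were 5.28 ± 1.82, 3.10 ± 0.986 and 4.84 ± 0.951 CPM. Its log2 fold change was -0.78 (SE 0.35) in old PBS against young PBS, 0.64 (SE 0.31) in old rMETRNL against old PBS and -0.13 (SE 0.27) in old rMETRNL against young PBS. The first and second values share the old PBS libraries, whose low level enters both with opposite sign. Counts include both the membrane and the secreted decoy form of the receptor, which a count per gene does not separate.

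Cytokine and receptor set against each other gave 443 to 907 Il33 counts per 100 Il1rl1 counts in old PBS, against 198 to 431 in young PBS and 390 to 520 in old rMETRNL. Old PBS lay narrowly above young PBS without overlap on this ratio and overlapped old rMETRNL. The nearest libraries were old PBS 2 at 443 (exact 95% interval 336 to 592) and young PBS 2 at 431 (328 to 573). The ratio was not among those planned, and it divides a gene higher in old PBS by one lowest there on average. Mast cells, which also carry ST2, had summed levels over 8 genes of 43.1 to 62.7 CPM in young PBS, 46.3 to 60.9 in old PBS and 51.5 to 112 in old rMETRNL. Their part in the level of Il1rl1 was not tested. Per 100 counts of the mast cell proteases Cpa3, Mcpt4, Cma1 and Tpsb2, a ratio added after the data were seen, Il1rl1 gave 13.7 ± 6.51, 8.10 ± 3.56 and 8.19 ± 3.58 counts in young PBS, old PBS and old rMETRNL (SD, n = 3). Over the 9 libraries Il1rl1 itself did not follow these proteases closely. Pearson's r of log2 CPM ran from 0.06 (Mcpt4) to 0.30 (Cpa3), given as a description. Over the genes of the fibro-adipogenic list its r ran from -0.42 (Ly6a) to 0.72 (Pdgfra). Which cells the Il1rl1 counts came from was not tested. The eosinophil and basophil list reached at most 2.77 CPM in any library. Over 8 genes of innate lymphoid cells the sums were 97.3 to 130 CPM in young PBS, 108 to 163 in old PBS and 95.1 to 123 in old rMETRNL. Rora alone averaged 93.6 CPM over the 9 libraries. Of the cytokines of type 2 innate lymphoid cells in that list, Il13 had 0 counts in all 9 and Il5 had 37 counts in all. The part of these cells in the level of Il1rl1 was not tested.

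Foxp3 (ENSMUSG00000039521, chromosome X, 7573644 to 7595245, plus strand), the defining transcription factor of regulatory T cells, was near the floor of these libraries, with 82 counts in all. Young PBS held 0, 11 and 12 counts, old PBS 7, 13 and 6, and old rMETRNL 9, 7 and 17. The groups overlapped throughout, at 0.429 ± 0.373, 0.472 ± 0.0953 and 0.549 ± 0.195 CPM (SD, n = 3). The log2 fold change was 0.14 (SE 0.86) in old PBS against young PBS and 0.36 (SE 0.75) in old rMETRNL against young PBS, and without young PBS 1, the library with 0 counts, these became -0.43 and -0.21. Without old PBS 3 the first was -0.03. Foxp3 fell below edgeR's filter in old rMETRNL against old PBS, where the ratio of the means was 1.16 and a fit without the filter gave 0.23 (SE 0.74). Its exons overlap those of Flicr on the same strand over 853 bases and of Ppp1r3f, Gm36995 and Ccdc22 on the opposite strand over 266, 373 and 590 bases, and the strand setting of the counting is not given in the sources used here, so reads there may have been assigned to either gene or to none.

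T cell genes as a whole stood higher in old PBS than in young PBS, although none passed the test by itself. Summed over 20 T cell genes the level was 28.9 to 35.7 CPM in young PBS, 42.8 to 62.6 in old PBS and 34.9 to 53.6 in old rMETRNL. Of the 19 genes of this list that could be tested, 18 had a positive log2 fold change in old PBS against young PBS, with a median of 0.74 against 0.01 over all genes. In 10 of them the groups did not overlap, all higher in old PBS, where the background is 5.26% of the 15560 genes tested. None of the 19 passed edgeR's quasi-likelihood test with adjustment, 9 had an unadjusted p under 0.05 (5.91% of all genes did), and DESeq2 called 0, against 1.42% of the genes it tested. With each library left out in turn the median stayed between 0.70 and 1.07. In old rMETRNL against old PBS, which shares the old PBS libraries, 3 of the 19 were positive, the median was -0.48, and 5 were lower without overlap, where 5.69% of all genes were. The T cell sums of old PBS 2, 3 and 4 were 62.6, 54.7 and 42.8 CPM. In the same libraries the hepatocyte sums were 84.1, 30.8 and 7.04 CPM and the brain sums 289, 97.4 and 338 CPM. The part of this RNA of other tissues in the T cell levels was not tested.

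Single genes of the list had different values, and no difference between T cell subsets was tested. Cd8a, the co-receptor of cytotoxic T cells, averaged 1.01 CPM in young PBS, 3.51 in old PBS and 1.72 in old rMETRNL, with a log2 fold change of 1.77 (SE 0.50, adjusted p = 0.420 by edgeR) in old PBS against young PBS. Cd3e, a chain of the T cell receptor complex, averaged 1.92, 3.23 and 1.27 CPM, with 0.74 (SE 0.32, adjusted p = 0.838) in the same comparison and -1.33 (SE 0.45, adjusted p = 0.459) in old rMETRNL against old PBS. Cd4, the co-receptor of the lineage that holds regulatory T cells, averaged 5.98, 5.47 and 8.27 CPM, and its log2 fold change was -0.12 (SE 0.35, adjusted p = 0.994) in old PBS against young PBS. Across all 9 libraries, Cd3d was the one gene of the 20 to be higher in every old library than in every young one. With a single library left out this count ran from 1 to 5, the highest without old rMETRNL 2.

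Relative to these T cell counts Foxp3 took different orders depending on the reference. Per 100 counts of Cd3e, Cd3d and Cd3g there were 0, 21.6 and 15.8 Foxp3 counts in young PBS, 6.48, 9.92 and 4.96 in old PBS, and 12.2, 17.1 and 19.1 in old rMETRNL. Old rMETRNL lay above old PBS without overlap on this ratio, while young PBS covered the range of both. The exact 95% intervals of single libraries lay between 1.78 and 17.6 in old PBS and between 5.35 and 38.4 in old rMETRNL. Each old PBS library overlapped each old rMETRNL library in its interval. These intervals cover single libraries and do not compare the groups. Summed over the group there were 26 Foxp3 and 360 Cd3 counts in old PBS, and 33 and 204 in old rMETRNL. Per 100 counts of the whole T cell list the means were 1.21 ± 1.05, 0.890 ± 0.143 and 1.33 ± 0.558, and the groups overlapped. Per 100 counts of Cd4 they were 6.55 ± 5.68, 9.53 ± 3.31 and 7.35 ± 4.41, with old PBS the highest and old rMETRNL below it. Cd4 held 1099 counts over all libraries, against 348 for Cd3e, 185 for Cd3d and 201 for Cd3g. Which cells the Cd4 counts came from was not tested, so the ratio to Cd4 need not describe T cells. The share of T cells that were regulatory could therefore not be ordered between groups from these counts.

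Il2ra (ENSMUSG00000026770, chromosome 2, 11642807 to 11693193, plus strand), the alpha chain of the IL-2 receptor that regulatory T cells hold at a high level, was nearly level over the groups. It held 28, 37 and 24 counts in young PBS, 31, 30 and 36 in old PBS and 34, 27 and 36 in old rMETRNL. Means were 1.67 ± 0.353, 1.89 ± 0.507 and 1.66 ± 0.149 CPM and the ranges overlapped in each pair. The log2 fold changes were 0.16 (SE 0.37), -0.18 (SE 0.35) and -0.01 (SE 0.31) in old PBS against young PBS, old rMETRNL against old PBS and old rMETRNL against young PBS. Over the 9 libraries Il2ra did not rise with the leukocyte gene Ptprc (Pearson's r of log2 CPM -0.70). Its r ran from -0.45 (Lum) to 0.92 (Gsn) over the 10 fibro-adipogenic genes, as a description. Which cells its counts came from was not tested, so its ratios to T cell genes need not describe T cells. Per 100 Cd3e, Cd3d and Cd3g counts Il2ra gave 31.6 to 72.5 in young PBS, 22.9 to 29.8 in old PBS and 40.4 to 65.9 in old rMETRNL. Old PBS was below both other groups without overlap on that ratio, which carries the higher Cd3 counts of old PBS in its denominator, and overlapped them per 100 counts of the whole T cell list (3.79 to 5.89, 2.39 to 5.29 and 3.40 to 4.37).

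Ctla4 (ENSMUSG00000026011, chromosome 1, 60887000 to 60915832, plus strand), an inhibitory receptor that binds CD80 and CD86, held 0, 11 and 6 counts in young PBS, 11, 9 and 11 in old PBS and 13, 12 and 11 in old rMETRNL. The young libraries were spread widest, and every pair of groups overlapped. Group means were 0.316 ± 0.306, 0.608 ± 0.188 and 0.624 ± 0.110 CPM. The log2 fold change was 0.89 (SE 0.85) in old PBS against young PBS, 0.95 (SE 0.73) in old rMETRNL against young PBS and 0.05 (SE 0.48) in old rMETRNL against old PBS. Single young libraries decided the first pair of values, which became 0.33 and 0.38 without young PBS 1 and 1.77 and 1.82 without young PBS 2. Young PBS 1, with 0 counts of both Foxp3 and Ctla4, was the lowest of its group for each. It also had the lowest sum over the T cell list, 28.9 CPM.

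Il10 (ENSMUSG00000016529, chromosome 1, 131019845 to 131024974, plus strand), an anti-inflammatory cytokine of regulatory T cells and macrophages, was the other gene with groups that did not overlap. It held 12, 13 and 10 counts in young PBS (0.693, 0.721 and 0.564 CPM), 3, 5 and 6 in old PBS 2 to 4 (0.202, 0.218 and 0.377 CPM) and 12, 19 and 6 in old rMETRNL (0.642, 1.07 and 0.271 CPM). Old PBS lay below young PBS, while old rMETRNL spanned both. The separation is one of low counts, with 86 in all libraries and old PBS 2 at the floor of 3 counts. Its nearest libraries were old PBS 4 with 6 counts and young PBS 3 with 10. Means were 0.659 ± 0.0838, 0.266 ± 0.0969 and 0.663 ± 0.402 CPM. The log2 fold change was -1.30 (SE 0.52) in old PBS against young PBS and -0.02 (SE 0.52) in old rMETRNL against young PBS. In old rMETRNL against old PBS the gene fell below the filter, and the ratio of means was 2.49 with overlapping libraries. Macrophage genes, 10 in the list, summed to 1784 to 2078 CPM in young PBS, 1271 to 1872 in old PBS and 1916 to 2228 in old rMETRNL. Their part in the level of Il10 was not tested.

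Areg (ENSMUSG00000029378, chromosome 5, 91139599 to 91148432, plus strand), the amphiregulin gene, was hardly detected. It held 1 count in old PBS 3, 6 counts in old rMETRNL 2 and 0 in the other 7 libraries. The gene fell below edgeR's filter on low counts in all 3 comparisons. Summed over a group, 3 counts correspond to 0.0568 CPM in young PBS without TMM factors, which is about the highest level that its 0 counts allow. The 6 counts of old rMETRNL came from a single library, and the other 2 of that group had none.

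**Figure D3:**
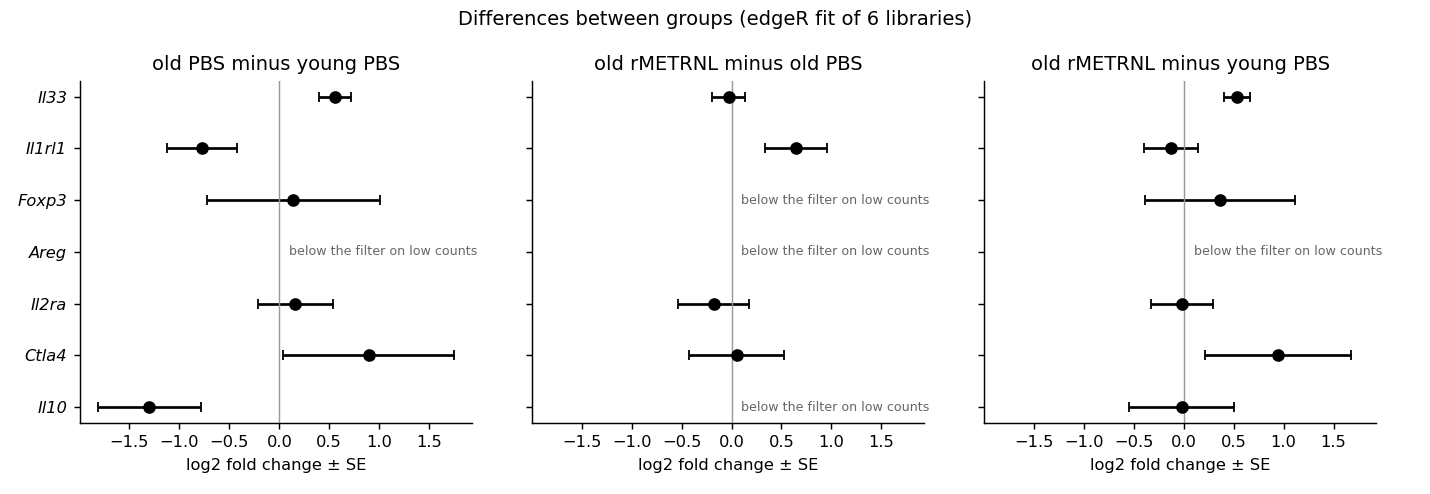
Log2 fold change (horizontal axis) with its SE for each gene in the 3 comparisons, from edgeR fits of 6 libraries each; genes below the filter on low counts are marked. The values of Il33 are 0.56, -0.03 and 0.53 from left to right, and the SE of Foxp3 and Ctla4 are 0.48 to 0.86.

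Of the 7 genes, 6 passed the filter on low counts in old PBS against young PBS, 4 in old rMETRNL against old PBS and 6 in old rMETRNL against young PBS. None was called in any of the 3, at background rates of 0.0643% of 15560 genes, 0.108% of 15682 and 0% of 15396. DESeq2 also called none of the 7, at background rates of 1.42%, 1.78% and 0%. In the last comparison 371 of all genes (2.41%) had an unadjusted p under 0.05. In old PBS against young PBS, Il33 was higher and Il10 lower without overlap, where 5.26% and 5.25% of all genes were. The median log2 fold change of those that passed was 0.15, 0.01 and 0.17 in the 3 comparisons, against 0.01, -0.01 and 0.00 over all genes.

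The other genes of the pathway were taken from 8 lists of 106 genes in all, of which 105 were in the table. Between 83 and 88 of them could be tested in each comparison, and edgeR called 0 in all 3, with 3, 3 and 5 at an unadjusted p under 0.05, where 5.91%, 8.07% and 2.41% of all genes had one, while DESeq2 called 0 as well. Their median log2 fold change was -0.09 in old PBS against young PBS, with 33 of 84 positive, 0.11 in old rMETRNL against old PBS, with 52 of 88 positive, and 0.03 in old rMETRNL against young PBS, with 45 of 83 positive. Groups did not overlap for 3 higher and 2 lower genes in the first comparison, 4 and 3 in the second and 5 and 2 in the third, where 5.26% and 5.25%, 6.99% and 5.69%, and 3.94% and 2.96% of all genes did so. The counts of old rMETRNL against old PBS depended on old PBS 3. Without that library 8 of the 89 genes tested from the lists were called, in a setting where 9.76% of all genes were, with Lag3, Bcl3, Tgfb1 and Irak4 higher and Erbb4, Egf, Tab2 and Il15 lower in old rMETRNL, and the calls over all genes went from 17 to 1560.

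**Figure D4:**
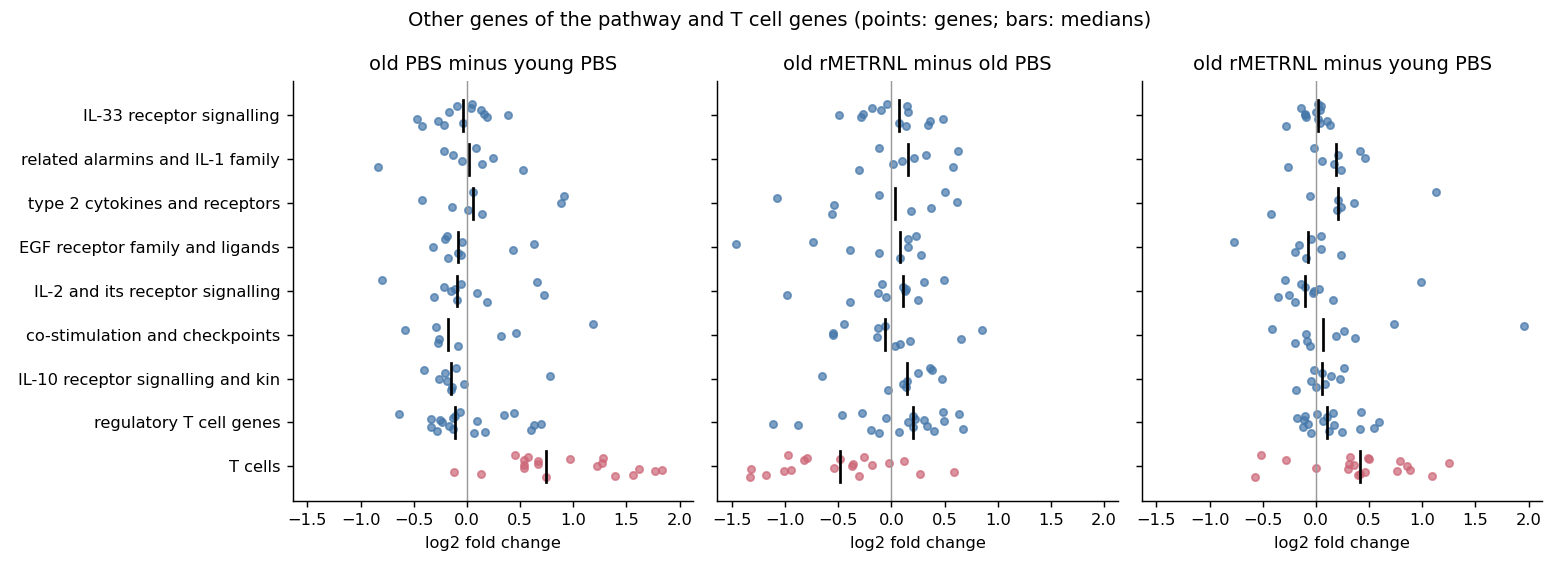
Log2 fold change (horizontal axis) of each tested gene in the 8 pathway lists (blue) and the T cell list (red), with list medians as bars. The T cell list is centred on 0.74 in old PBS against young PBS and on -0.48 in old rMETRNL against old PBS, whereas the pathway lists lie around 0.

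On the receiving side of IL-33, Il1rap, the shared receptor chain, averaged 5.87 CPM in young PBS, 4.38 in old PBS and 4.83 in old rMETRNL. Both old groups were below young PBS without overlap, with log2 fold changes of -0.42 (SE 0.23, adjusted p = 0.959 by edgeR) and -0.28 (SE 0.19, adjusted p = 0.9996), and old rMETRNL was above old PBS at 0.14 (SE 0.22, adjusted p = 0.893). Myd88, the adaptor of the receptor, stood at 15.2, 13.1 and 16.7 CPM with overlapping groups. Irak2, a kinase of the same pathway, averaged 22.0, 18.3 and 23.6 CPM, with 0.37 (SE 0.18, adjusted p = 0.661) in old rMETRNL against old PBS, which did not overlap. In the list of 13 genes, all tested, 6 were positive in old PBS against young PBS and 7 in each of the other comparisons.

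Among alarmins and type 2 genes, Ccl11, the eosinophil chemokine eotaxin, had the lowest p in old PBS against young PBS, with 17.5 CPM in young PBS, 32.5 in old PBS and 22.4 in old rMETRNL and a log2 fold change of 0.89 (SE 0.32, adjusted p = 0.695 by edgeR). Tslp, another epithelial alarmin, averaged 1.46, 1.25 and 1.94 CPM in young PBS, old PBS and old rMETRNL with overlapping groups. The IL-1 receptor gene Il1r1 averaged 19.5, 23.1 and 26.9 CPM, with 0.46 (SE 0.15, adjusted p = 0.9996) in old rMETRNL against young PBS. Il1rn, the antagonist of that receptor, averaged 3.29, 1.82 and 2.76 CPM with overlap. Il13ra1, a receptor chain for IL-13, averaged 24.7, 22.4 and 29.1 CPM with overlap between the old groups. Chil3, a chitinase-like gene of macrophages in type 2 responses, averaged 0.528, 0.786 and 1.17 CPM, with 1.13 (SE 0.44, adjusted p = 0.9996) in old rMETRNL against young PBS, which did not overlap. Il9, Il13 and Il25 had 0 counts in every library.

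For amphiregulin's receptor, Egfr averaged 45.9, 40.5 and 43.1 CPM in young PBS, old PBS and old rMETRNL and its partner Erbb2 10.9, 10.4 and 12.8 CPM, all with overlap. The receptor was thus well detected where the ligand was not. Hbegf, another ligand of EGFR, held 145 to 372 counts per library. The ligand genes Egf (22.4, 30.4 and 23.2 CPM) and Btc (1.60, 1.57 and 0.925 CPM) overlapped between all groups. Tgfa averaged 0.634, 1.01 and 0.351 CPM, with -1.47 (SE 0.60, adjusted p = 0.578 by edgeR) in old rMETRNL against old PBS, which overlapped.

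In the IL-2 pathway, Il2 itself had 6 counts in all, from old PBS 2, old rMETRNL 1 and old rMETRNL 3. The receptor chains Il2rb and Il2rg averaged 5.24 to 6.79 and 6.54 to 7.84 CPM over the groups, with overlap. Il15, a cytokine that shares both chains, averaged 8.11 CPM in young PBS, 13.5 in old PBS and 6.78 in old rMETRNL, with -0.98 (SE 0.47, adjusted p = 0.653 by edgeR) between the old groups, and was among the genes called without old PBS 3. Socs1, which dampens cytokine receptor signals, averaged 5.01, 2.85 and 4.10 CPM, with overlap. Cish, another feedback inhibitor of cytokine signalling, averaged 3.63, 5.79 and 7.16 CPM, with 0.98 (SE 0.43, adjusted p = 0.9996) in old rMETRNL against young PBS, and was called there when no filter on low counts was used.

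Among the checkpoint genes beside Ctla4, Tigit averaged 0.224 CPM in young PBS, 0.957 in old PBS and 0.900 in old rMETRNL. Its log2 fold change was 1.96 (SE 0.58, adjusted p = 0.9996 by edgeR) in old rMETRNL against young PBS, from 12 counts in the 3 young libraries, and -0.06 (SE 0.52, adjusted p = 0.982) in old rMETRNL against old PBS. Cd226, the activating receptor for the ligands of TIGIT, averaged 0.717, 1.63 and 1.21 CPM in the same order, with 1.18 (SE 0.38, adjusted p = 0.583) in old PBS against young PBS. Lag3 averaged 5.34, 3.54 and 6.44 CPM, with 0.85 (SE 0.30, adjusted p = 0.488) in old rMETRNL against old PBS. The groups did not overlap for Tigit in old rMETRNL against young PBS, nor for Cd226 and Lag3 in the comparison given. Cd28 and the ligands Cd80 and Cd86 differed by at most 0.28 on the log2 scale in any comparison, with overlapping groups. The IL-10 receptor chains Il10ra and Il10rb were at 24.7 to 28.0 and 17.9 to 19.7 CPM, and Tgfb1 averaged 38.7, 29.3 and 38.3 CPM, with overlap. Bcl3, a regulator of NF-kB, averaged 5.93, 5.47 and 7.13 CPM, with overlap.

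The list of 22 further genes of regulatory T cells had a median log2 fold change of -0.11, 0.20 and 0.10 in the 3 comparisons, over 19, 19 and 17 genes tested. Capg, an actin-capping protein that macrophages also hold at a high level, led it. It was at 52.6, 51.5 and 53.8 CPM in young PBS, 29.2, 32.7 and 39.9 in old PBS and 53.3, 55.6 and 49.9 in old rMETRNL, so that old PBS lay below both other groups. Its log2 fold change was -0.64 (SE 0.16, adjusted p = 0.299 by edgeR) in old PBS against young PBS and 0.64 (SE 0.16, adjusted p = 0.274) in old rMETRNL against old PBS. The macrophage marker Cd68 had values of -0.60 (SE 0.22, adjusted p = 0.695) and 0.57 (SE 0.19, adjusted p = 0.462) in the same comparisons. Irf4, a transcription factor of effector regulatory T cells, averaged 4.27, 4.58 and 6.45 CPM, with 0.59 (SE 0.25, adjusted p = 0.9996) in old rMETRNL against young PBS, which did not overlap. Ikzf2 (Helios) averaged 12.7, 13.4 and 12.3 CPM and Tnfrsf18 (GITR) 5.56, 4.56 and 6.07 CPM, both with overlap. Gata3, which type 2 lymphocytes and a part of the regulatory T cells use, averaged 0.465, 0.737 and 0.395 CPM, and was lower in old rMETRNL than in old PBS without overlap, at -0.88 (SE 0.50, adjusted p = 0.690).

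**Figure D5:**
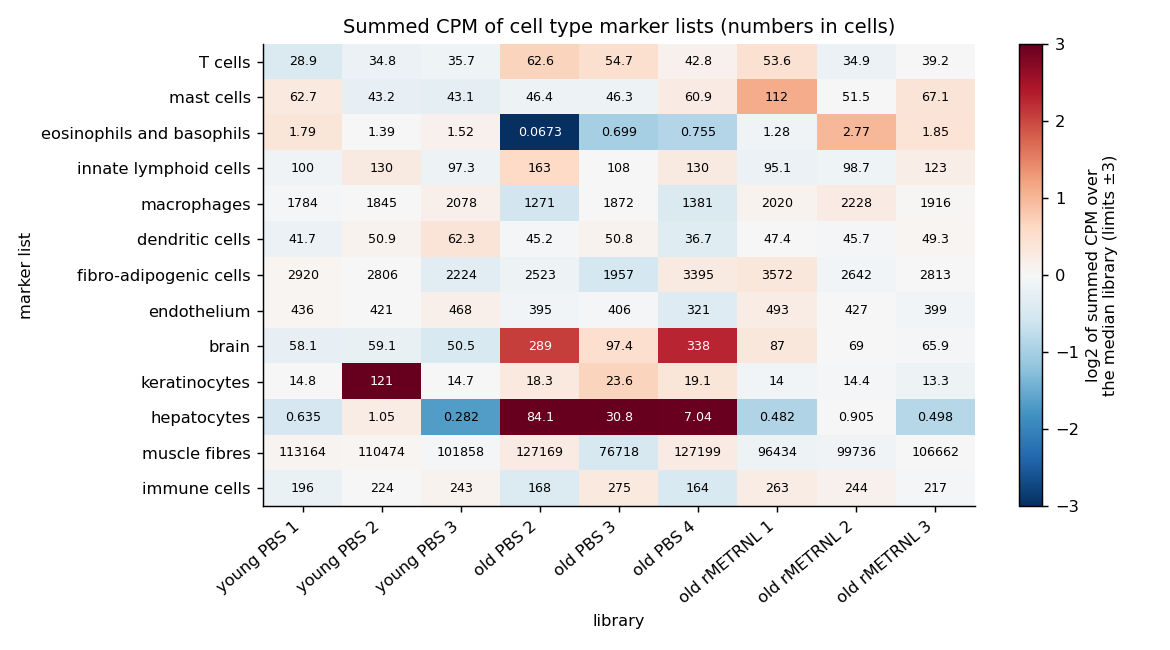
Summed CPM (numbers) of each cell type marker list (rows) in each library (columns), coloured by the log2 ratio to the list's median library. Old PBS carries brain and hepatocyte RNA, young PBS 2 carries keratinocyte RNA at 121 CPM, and T cell sums are 42.8 to 62.6 CPM in old PBS against 28.9 to 35.7 in young PBS.

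The genes whose levels followed most closely those of Il33, Il1rl1 and Il2ra, the members with a mean of at least 1 CPM, were ranked by Pearson's r of log2 CPM over the 9 libraries, among 14177 genes that also reached this mean. The 9 points share groups and depth, and r is given as a description. For Il33 they were the pseudogene Gm21926 (r = 0.954), the endothelial receptor gene Gpr182 (0.921) and the riboflavin transporter gene Slc52a3 (0.906). For Il1rl1 they were Zfp469 (0.953), Mrgprf (0.947) and Ncald (0.930), and for Il2ra Foxc1 (0.958), Sap30l (0.949) and Mapkap1 (0.948).  Ranked by Spearman's rho, 1 of the 3 genes was shared for each of Il33, Il1rl1 and Il2ra.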

How the data were processed

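The authors deposited raw counts, whole numbers of reads per Ensembl gene in 9 libraries, not normalized. Per the methods, the NEBNext Ultra kit and paired-end sequencing were used. The submitters' processing notes name STAR, featureCounts and mm9. Versions, annotation and strand setting are not given in the sources used here. Symbols (54409 of 54532 IDs matched), exon lengths and coordinates came from a GENCODE annotation of GRCm38, so coordinates are not those of the authors' build.

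Pairs of groups were compared over 6 libraries each, in edgeR 4.0.16 under R 4.3.3 (filterByExpr, TMM, glmQLFit and glmQLFTest, Benjamini-Hochberg adjustment over all genes tested, threshold 0.05). The SE is the size of the log2 fold change over the square root of F. CPM used TMM factors of all 9 libraries. The 95% intervals of count ratios are exact (Clopper-Pearson, scipy). A count of 3 was the floor. The 7 genes, the pathway and marker lists and the tests were chosen with earlier results of these data known. Named genes are the 7 genes, fixed partners, the gene of each pathway list with the lowest p in a comparison, the 3 genes most like each member above 1 CPM, and marker lists. Hbegf, Il5, Il9, Il13, Il25, Rora, Cd8a, Cd3d, Cd68, Pdgfra, Gsn, Lum, Ptprc, Aqp4, Slc1a2 and the genes called without old PBS 3 were named after their values were seen. So were Mobp, Snap25, Dpp4, Ly6a, Dcn, Cpa3, Mcpt4, Cma1 and Tpsb2.

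Alternatives were DESeq2 1.42.0, its size factors, no filter, at least 10 counts in every library, a fit of all 9 libraries, the replicate block and leaving out each library. On simulated data of 15682 genes for old rMETRNL against old PBS, with 200 genes changed by a log2 of 2, edgeR called 183, of which 175 were changed genes and 8 false. All genes were drawn with a dispersion of 0.1 in both groups. The spread of the real old PBS libraries and smaller changes were not simulated, so the run does not give power or false calls for these data. The labels give no batch or date.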

Additional observations from a re-analysis of the deposited data

How the results depend on the processing

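No member that was tested, 3 to 7 of the 7 depending on the setting, was called in the 36 combinations of comparison and alternative, and the members' levels under other scalings moved by less than the SD between replicates in 42 of 42 cases. Of 185 alternative fold changes of the members, 184 moved by less than the SD of log2 CPM within the groups compared, which is wide for genes with a library at 0 such as Ctla4, and that of Il10 in old PBS against young PBS went from -1.30 to -1.61 without old PBS 4. Counts over all genes moved far more. In old PBS against young PBS, 10 genes were called, against 354 without a filter, 3 with at least 10 counts in every library, 265 by DESeq2, 63 in a fit of all 9 libraries and 2 to 401 with a library left out. In old rMETRNL against old PBS, 17 were called, against 740, 1, 354 and 71 under the same alternatives and 3 to 1560 with a library left out. In old rMETRNL against young PBS, 0 were called, against 132 without a filter and 0 to 1 with a library left out. Both highest values, 401 and 1560, are those without old PBS 3. Where a library was left out, the arm kept 2 libraries, and fewer libraries entered the fit, but the cause of these shifts was not tested. Of the other pathway genes, 2 (Erbb4 and Il15, lower) were called in old rMETRNL against old PBS without a filter and 0 to 8 with a library left out, and 1 (Cish, higher) in old rMETRNL against young PBS without a filter. Relative to young PBS, the old PBS mean of Il2ra was 0.481 per Cd3 count and 0.721 per T cell list count, and that of Ctla4 0.887 and 1.30. The replicate numbers are shared between groups, but nothing says that they mark a shared animal or day. The correlations of deviations were 0.0231, -0.0507 and -0.178 for the same-numbered pairs of young PBS and old rMETRNL, 0.114 and 0.412 for young PBS and old PBS, and -0.0486 and -0.316 for old PBS and old rMETRNL, so the 3 pairs of young PBS and old rMETRNL did not vary together, and the 2 pairs of young PBS and old PBS, although both positive, are too few to establish a pairing. With the replicate block 11, 65 and 0 genes were called in the 3 comparisons, none of them a member, and in old PBS against young PBS the log2 fold change of Ctla4 went from 0.89 to 0.25 and that of Foxp3 from 0.14 to -0.30. With 3 libraries a group and 0 to 19 counts per library, depth limits what can be said of Foxp3, Ctla4, Il10 and Areg.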
